A study of Mus musculus with 4 samples.

Results

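Trp53, the gene of the transcription factor p53, and 9 genes that p53 is known to activate were followed through the tumor and host cells of mouse ascites. The 10 genes were set by name (Trp53, Mdm2, Cdkn1a, Ccng1, Sesn2, Phlda3, Zmat3, Bax, Bbc3 and Eda2r) among the 29835 genes of the count matrices, and all 10 had counts in each library. Ascites came from female C57BL/6 mice that had received intraperitoneal ID8-Trp53-/- cells, a CRISPR-edited subline of the ID8 ovarian epithelial cells that also carried an iRFP reporter. Injections began 7 days after the cells and were repeated until about 3 mL of ascites. The control mice received DMSO and an IgG2a isotype antibody. The BTYNB mice received BTYNB, a small-molecule inhibitor of the RNA-binding protein IGF2BP1, with the isotype antibody, the anti-PD-1 mice received DMSO with the blocking antibody RMP1-14, and the combination mice received both agents. The labels give 50 mg/kg of BTYNB and 100 ng of antibody per dose, whereas the study's methods state other amounts. All 4 groups therefore shared the Trp53-deficient tumor line, and no label describes an altered Trp53 in the host. The labels name the tissue an intraperitoneal xenograft, although line and host are of the same strain background. Cells from the mice of a group were pooled into 1 library, so no group has a replicate, and the intervals below are exact 95% intervals for counting error only.

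p53 is held at a low level by Mdm2, the ubiquitin ligase that marks it for degradation and is itself a p53 target. When DNA damage or other stress stabilizes p53, it binds DNA as a tetramer and activates genes of cell cycle arrest, repair, metabolism and apoptosis.

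The DNA element that p53 recognizes consists of a pair of 10-base elements, each of 3 purines, C, A or T at 2 positions, G and 3 pyrimidines, with a spacer of 0 to 13 bases between them. The RefSeq promoter windows of GRCm38.p6, which run from 250 bases before to 50 bases after a start, were searched for it, and 9 of the 10 genes had at least 1 window. The pattern equals its own reverse complement, so the search covers both strands. Elements with at most 1 mismatch were found in Cdkn1a, Bax and Ccng1, and 1.09% of all 32851 windows held such an element. The stretches are shown because Cdkn1a, Bax and Ccng1 behaved differently from each other in the cells below. Capitals mark the paired 10-base elements, and each stretch is written 5′ to 3′ along its gene.
Cdkn1a, chr17:29090886-29090957, plus strand: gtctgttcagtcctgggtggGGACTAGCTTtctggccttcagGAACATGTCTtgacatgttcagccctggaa
Bax, chr7:45467070-45467130, minus strand: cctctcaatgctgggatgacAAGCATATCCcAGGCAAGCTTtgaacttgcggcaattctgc
Ccng1, chr11:40755442-40755501, minus strand: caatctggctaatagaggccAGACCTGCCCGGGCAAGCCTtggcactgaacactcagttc
The Cdkn1a element had 0 mismatches and a spacer of 12 bases and began 73 bases before the upstream of 2 starts. The same window held a pair without a spacer that began 51 bases before the start, at the last capitals of the stretch, with 1 mismatch. The Bax element began 212 bases before its start with a spacer of 1 base, and the Ccng1 element began 195 bases before its start with no spacer, each with 1 mismatch. Elements of 0 mismatches were found in 0.0731% of all windows, and pairs without a spacer and at most 1 mismatch in 0.0883%. The closest matches in the windows of Trp53, Mdm2, Sesn2, Phlda3, Bbc3 and Eda2r had 3 or more mismatches, which says only that these letters are not in those windows. Sites farther from the start or in introns were not searched.

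The control library held 7858 cells, that of BTYNB 19247, that of anti-PD-1 12163 and that of the combination 7074, with 78603888 to 114600397 UMIs, the counted transcript molecules. The BTYNB library stood apart in depth, with a median of 2562 UMIs per cell and cells down to 869 UMIs, against medians of 6908 to 9480.5 and minima of 3533 to 5115 UMIs elsewhere. Tumor cells were taken as cells with at least 5 UMIs of Krt7, Krt8, Krt18, Krt19 and Wt1 together and 0 of Ptprc, which gave 7078 cells in control, 3426 with BTYNB, 10877 with anti-PD-1 and 4237 with both agents. Myeloid cells, with at least 3 UMIs of Lyz2 and Csf1r and at most 2 keratin UMIs, numbered 285, 2945, 370 and 1176 in the same order. T cells (at least 2 UMIs of Cd3d, Cd3e and Cd3g) and B cells (at least 3 UMIs of Cd79a and Cd79b) passed the minimum of 50 cells only in the BTYNB library (2302 and 3141 cells) and in the combination library (95 and 123 cells). Markers outside the gates separated tumor from myeloid cells. All 8 further myeloid markers summed to 6223 to 8340 UMIs per 1000000 UMIs of the class (CPM) in myeloid cells and 23.4 to 57.5 CPM in tumor cells, and 8 further tumor markers summed to 1103 to 1485 CPM in tumor cells and 45.4 to 173 CPM in myeloid cells. In T and B cells, however, those 8 tumor markers were at 284 and 410 CPM in BTYNB and at 761 and 738 CPM in combination, which is 19.1% and 27.6%, and 55.5% and 53.9%, of the tumor level. The part of tumor RNA or attached tumor cells in the T and B cell values was not tested. The 5 stromal and endothelial markers summed to 264 to 379 CPM in tumor cells and to 30.9 to 150 CPM in myeloid cells. The tumor gate did not use the iRFP reporter, and the part of host cells such as mesothelial cells in it was not tested. Libraries shared at most 4 cell indices in any pair.

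Trp53 was counted in the tumor cells of each library despite the knockout label, at 25.9 CPM in the control library, 34.2 CPM with BTYNB, 25.1 CPM with anti-PD-1 and 30.6 CPM with both agents. Myeloid cells of the same libraries held 58.6, 72.5, 68.5 and 68.9 CPM, so that the tumor and myeloid values did not overlap. Inside each library the tumor level was lower by 1.06 to 1.41 on the log2(CPM + 1) scale, a mean of -1.19 ± 0.15 (SD, n = 4 libraries) or 2.28-fold. These libraries differ in treatment and are not replicates of a condition, and an exact sign-flip test over 4 libraries cannot go below a two-sided p of 0.125, so no p is given. The position of the edit is not given in the sources used here, and molecules counted by transcript tags away from an edit stay countable after it, so that the Trp53 level checks nothing about the edit itself. It describes how much Trp53 transcript, edited or not, the cells of the tumor gate held.

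Tumor cells carried more UMIs per cell than myeloid cells, with medians of 7160 to 14853 against 4201 to 7062. In UMIs per cell, an alternative added after the data were seen, Trp53 stood at 0.273, 0.535, 0.190 and 0.389 in tumor cells against 0.344, 0.377, 0.305 and 0.526 in myeloid cells, in the order control, BTYNB, anti-PD-1 and combination. On that scale the tumor value was lower in 3 libraries and higher in BTYNB, with a mean log2 ratio of -0.24 ± 0.52 (SD, n = 4). The lower Trp53 of tumor cells was thus a lower share of the transcripts and not in every library a lower number per cell.

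Shares of cells with a UMI were compared after each cell had been thinned to 1000 UMIs. A Trp53 UMI remained in 2.71%, 3.70%, 2.50% and 3.35% of tumor cells and in 5.96%, 7.06%, 5.95% and 7.23% of myeloid cells, again in the order control, BTYNB, anti-PD-1 and combination. Without thinning the shares were 22.6%, 35.7%, 16.7% and 29.9% of tumor cells and 28.1%, 26.7%, 25.9% and 37.5% of myeloid cells. As a gauge of free RNA, thinned myeloid cells carried a UMI of the mesothelial and tumor gene Upk3b in 1.40% to 6.49% of cells, and thinned tumor cells carried a UMI of the macrophage gene Lyz2 in 1.0% to 2.81%. The Trp53 share of tumor cells was above the Lyz2 share of the same library in 4 of 4 libraries. The intervals overlapped in anti-PD-1 (2.22% to 2.81% and 1.75% to 2.29%) and combination (2.83% to 3.94% and 2.33% to 3.35%). Lyz2 was seen in 86.1% to 97.3% of thinned myeloid cells, a gate that Lyz2 itself sets in part. Trp53 was seen in only 5.95% to 7.23% of the same cells, so the Lyz2 share of tumor cells is no measure of free Trp53 RNA. The part of free RNA in the Trp53 values was not tested.

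**Figure D1:**
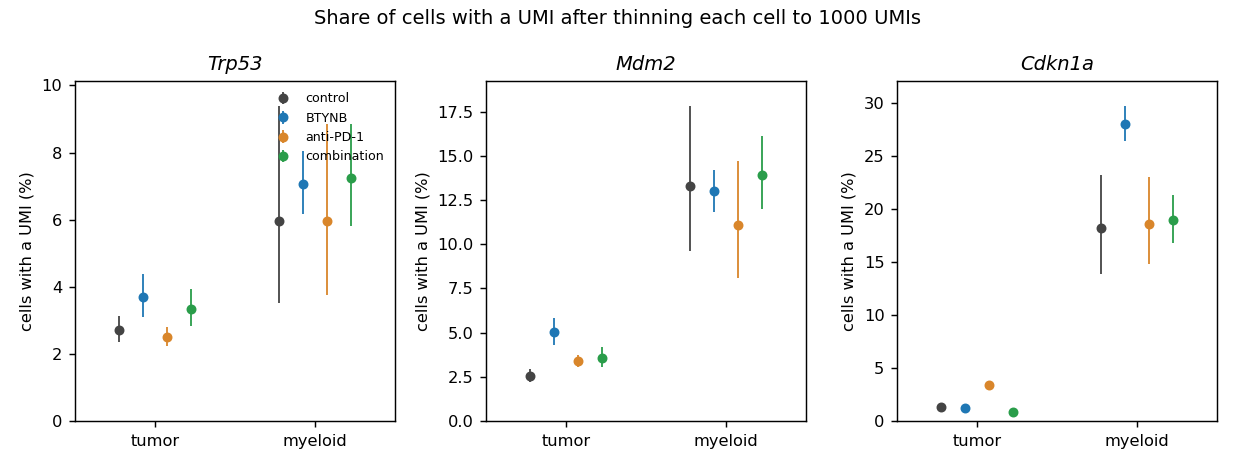
Percent of tumor and myeloid cells with at least 1 UMI of Trp53, Mdm2 or Cdkn1a (vertical axes, a scale for each gene) after each cell was thinned to 1000 UMIs, with exact binomial 95% intervals, and 1 point per library. Every tumor point lies below every myeloid point for the 3 genes, and Cdkn1a ranges from 0.873% to 3.39% in tumor and from 18.2% to 28.0% in myeloid cells.

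The feedback regulator Mdm2 was also lower in tumor cells. It was counted at 28.8, 40.8, 35.0 and 38.3 CPM in tumor cells, in the same library order, against 127, 133, 114 and 149 CPM in myeloid cells. No tumor value reached a myeloid value, and the log2 ratio was -1.85 ± 0.21 (SD, n = 4). In UMIs per cell it was lower in 4 of 4 libraries, with log2 ratios from -1.29 to -0.12.

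Of the arrest genes, Cdkn1a, the gene of the cyclin-dependent kinase inhibitor p21, had the largest difference among the 10 genes. Tumor cells held 15.1 CPM in the control library, 10.2 CPM with BTYNB, 43.0 CPM with anti-PD-1 and 10.4 CPM with both agents, and myeloid cells held 225, 310, 230 and 211 CPM. The tumor level was 14.0-fold lower on average, with a log2 ratio of -3.81 ± 1.02 (SD, n = 4), and the anti-PD-1 library gave the smallest difference (-2.40). Without that library the mean was -4.28. Thinned cells with a Cdkn1a UMI were 1.34%, 1.20%, 3.39% and 0.873% of tumor and 18.2%, 28.0%, 18.6% and 19.0% of myeloid cells.

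Cdkn1a was unevenly spread over tumor cells. The 5% of tumor cells with most Cdkn1a UMIs held 49.0% to 70.1% of them, against 22.2% to 27.6% in myeloid cells, although a share of this kind also rises where a gene is sparse. A UMI was seen in 12.1%, 9.89%, 19.1% and 8.95% of unthinned tumor cells, and the highest count in a tumor cell ranged from 7 UMIs in control to 21 in combination.

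Ccng1, the gene of cyclin G1, stood at 50.0, 45.1, 42.0 and 37.0 CPM in tumor cells of control, BTYNB, anti-PD-1 and combination. Myeloid cells held 152, 77.5, 112 and 104 CPM. The classes did not overlap, but the BTYNB library differed by only -0.77, and the mean log2 ratio was -1.31 ± 0.37 (SD, n = 4). Sesn2, which encodes a stress-responsive inhibitor of mTORC1 signaling, was counted at 5.37, 4.22, 3.43 and 3.50 CPM in tumor cells and at 17.9, 19.7, 11.5 and 11.1 CPM in myeloid cells, a log2 ratio of -1.62 ± 0.25 (SD, n = 4).

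Phlda3, which encodes a repressor of Akt, was the exception. Its level was 8.91, 6.30, 9.29 and 6.65 CPM in tumor cells against 3.59, 1.11, 4.24 and 5.35 CPM in myeloid cells. The tumor value was higher in 4 of 4 libraries, by 1.04 ± 0.62 on the log2 scale (SD, n = 4), but the interval of the combination library included 0 (-0.11 to 0.65), and the myeloid values rested on 6 to 48 UMIs. Zmat3, the gene of an RNA-binding zinc finger protein, was at 6.98, 7.17, 7.95 and 6.19 CPM in tumor cells and at 14.9, 8.74, 10.9 and 9.48 CPM in myeloid cells. Its log2 ratio was -0.55 ± 0.32 (SD, n = 4), and the intervals of BTYNB and anti-PD-1 included 0.

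Bax and Bbc3, which promote apoptosis, differed less than Trp53 and Mdm2. Bax, which encodes the pore-forming protein of the mitochondrial outer membrane, was at 68.0, 62.8, 74.6 and 63.5 CPM in tumor and at 101, 120, 121 and 107 CPM in myeloid cells, a log2 ratio of -0.73 ± 0.15 (SD, n = 4). In UMIs per cell that order turned, with a mean log2 ratio of 0.24 ± 0.29, and for Zmat3 likewise (0.37 ± 0.66). Bbc3, the gene of the BH3-only protein PUMA, stood at 6.98, 8.20, 5.90 and 8.90 CPM in tumor and at 8.37, 7.50, 10.3 and 9.36 CPM in myeloid cells. Its levels overlapped and its mean log2 ratio of -0.22 ± 0.36 (SD, n = 4) was smaller than the spread. Eda2r, a receptor of the TNF receptor family, was nearly absent, with 9 to 17 UMIs in the tumor cells of a library and 0 to 1 UMIs in its myeloid cells, and its difference could not be measured at this depth.

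Read as a list, 3 of the 8 target genes with at least 100 UMIs were at least 2-fold lower in tumor than in myeloid cells in 4 of 4 libraries (Mdm2, Cdkn1a and Sesn2), as was Trp53 itself. The same was true of 10.3% of the 16346 genes with as many UMIs, and 14.0% of them were at least 2-fold higher in 4 of 4 libraries, as were 0 of the 8 targets. Leaving out the BTYNB library added Ccng1 to the count. The median log2 ratio of these 8 targets was -1.02, or -0.73 with the sparse Eda2r included, beside 0.31 over all genes tested. The minimum of 100 UMIs was taken over tumor and myeloid cells together, and tumor cells held most of these UMIs in each library. Genes high in tumor cells thus passed it more easily, and the part of this in the shares and medians over all genes was not tested. How many of all genes had tumor and myeloid values that did not overlap was not counted, so the non-overlap given above has no background. The genes were not picked at random, so nothing particular to p53 follows from the counts.

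**Figure D2:**
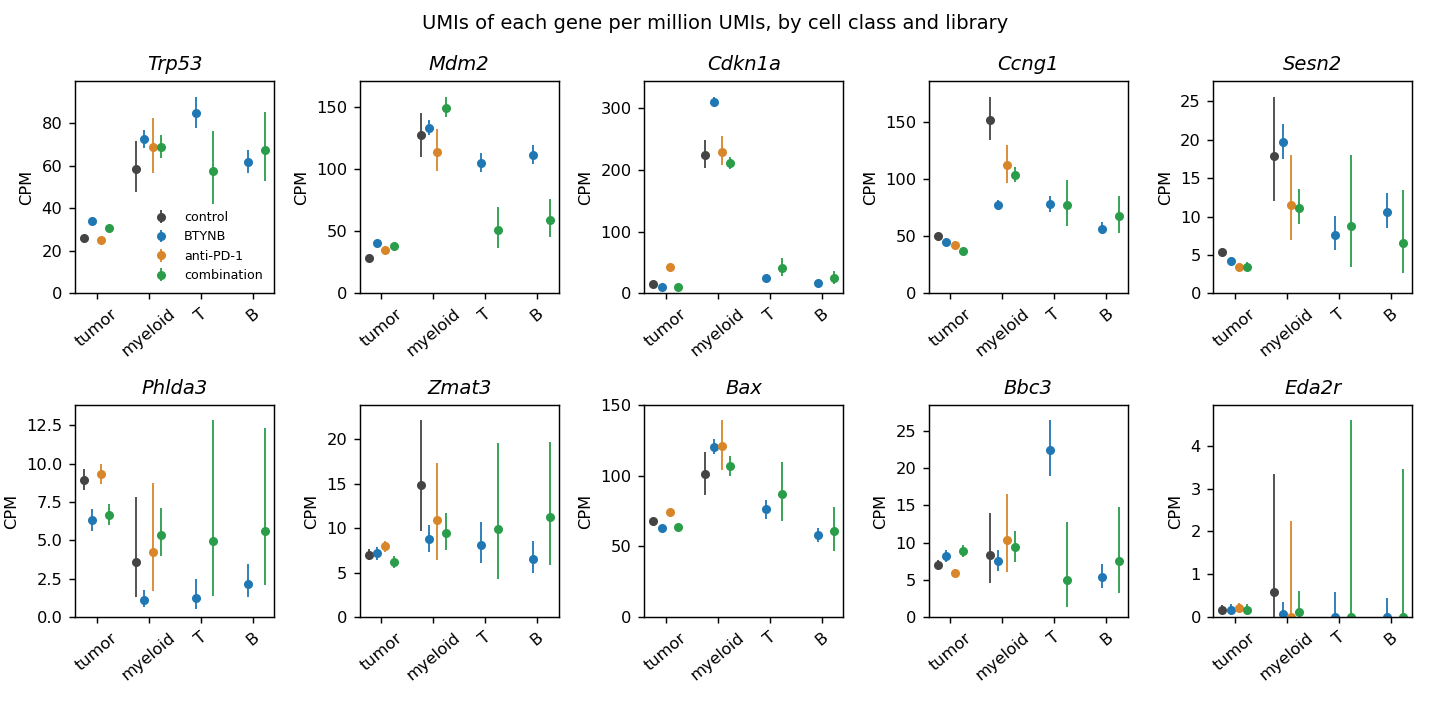
UMIs of each of the 10 genes per 1000000 UMIs of the class (CPM, vertical axes from 0, a scale for each gene) in tumor, myeloid, T and B cells, with 1 point per library and exact Poisson 95% intervals, and classes of under 50 cells left out. Tumor points lie below the myeloid points for Trp53, Mdm2, Cdkn1a, Ccng1, Sesn2, Zmat3 and Bax, and above them for Phlda3. The share of all genes whose points lie apart in this way was not counted.

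**Figure D3:**
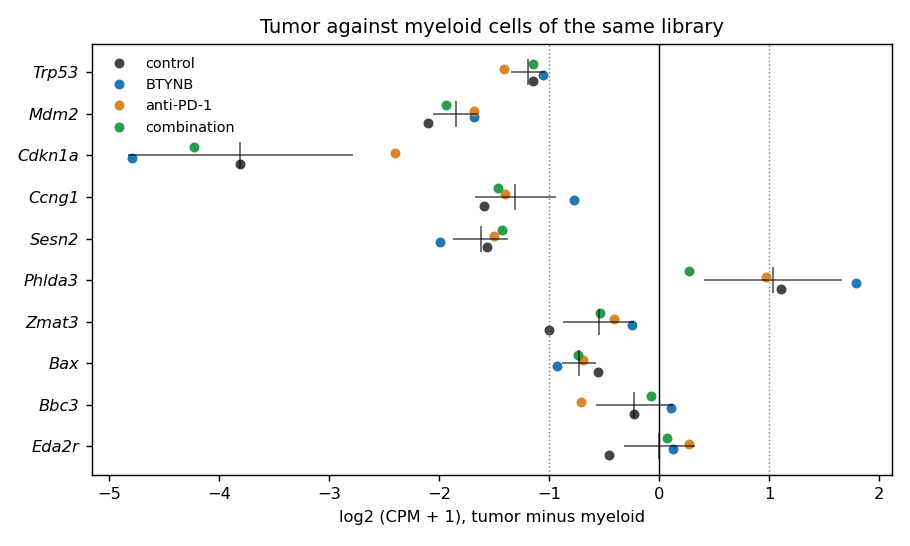
Difference in log2(CPM + 1) between tumor and myeloid cells of the same library (horizontal axis) for each gene, with 1 colored point per library, the black bar at the mean with its SD over 4 libraries, and dotted lines at 2-fold. Trp53, Mdm2, Cdkn1a and Sesn2 lie beyond the 2-fold line on the lower side in 4 of 4 libraries, and Cdkn1a is the farthest from 0.

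In the means over libraries, T and B cells gave smaller differences than myeloid cells for most of the genes. Only the BTYNB and combination libraries entered these means, however, whereas all 4 entered those of myeloid cells. Trp53 was at 84.8 CPM in BTYNB T cells, at 57.3 CPM in combination T cells and at 61.7 and 67.5 CPM in B cells, each above the tumor value of its library, with log2 ratios of -1.08 ± 0.28 against T cells and -0.97 ± 0.20 against B cells (SD, n = 2). Against myeloid cells of the BTYNB and combination libraries Trp53 differed by -1.06 and -1.15. With T and B cells limited to at most 2 keratin UMIs the ratios were -1.33 and -1.51, larger than the mean of -1.19 against myeloid cells. The order of the host classes for Trp53 thus depended on that limit. In UMIs per cell the direction reversed in the mean, to 0.43 ± 1.06 and 0.57 ± 1.64, since T and B cells of the BTYNB library had medians of 2055.5 and 1867 UMIs.

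Cdkn1a was at 25.2 and 41.1 CPM in T cells and at 17.0 and 24.4 CPM in B cells of BTYNB and combination, far below the myeloid level. It was the only target at least 2-fold lower in tumor than in T cells in both libraries, beside 8.68% of 14071 genes, and 0 of 8 targets passed against B cells, beside 9.16% of 14091 genes. In the other direction 5.60% and 4.93% of genes were at least 2-fold higher in tumor than in T and in B cells, and 0 of 8 targets. Mdm2 was at 105 and 111 CPM in BTYNB T and B cells but at 51.1 and 59.1 CPM in those of the combination. That difference, of -1.03 (-1.51 to -0.58) in T and -0.90 (-1.29 to -0.54) in B cells, went with tumor markers at 284 against 761 CPM in T cells and 410 against 738 CPM in B cells, and their part in it was not tested. Bbc3 was at 22.4 CPM in BTYNB T cells (143 UMIs) and at 4.98 CPM in combination T cells (4 UMIs), against 5.35 and 7.51 CPM in B cells.

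Tumor cells with at least 3 UMIs of the proliferation genes Mki67, Top2a and Ube2c were taken as cycling, and made up 39.2% of the tumor cells in control, 29.1% with BTYNB, 38.2% with anti-PD-1 and 37.7% with both agents. The gate needs counts and so favors deep cells, and medians were 8447 to 19988.5 UMIs in cycling and 6437 to 13221.5 in non-cycling cells. Cdkn1a, whose product halts the cycle, was higher in the cycling cells of each library, at 19.8, 16.9, 54.8 and 13.2 CPM against 11.1, 6.21, 33.7 and 8.23 CPM in non-cycling cells. The log2 ratio was 0.85 ± 0.32 (SD, n = 4), with a lower interval bound of at least 0.39 in each library. It was 0.84 ± 0.39 among cells of at least 5115 UMIs. In thinned cells the Cdkn1a shares were 1.58%, 1.91%, 4.79% and 0.939% of cycling and 1.0%, 0.788%, 2.69% and 0.947% of non-cycling cells, and in combination no order can be read from them. The intervals of the pair also overlapped in control and BTYNB and lay apart only in anti-PD-1.

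In myeloid cells split by the same 3 genes, a description added after the tumor values were seen, the order was the other way. Cdkn1a stood at 177, 228, 204 and 205 CPM in cycling and at 269, 326, 244 and 214 CPM in non-cycling myeloid cells of control, BTYNB, anti-PD-1 and combination, and the intervals of the pair overlapped in anti-PD-1 and combination. Mdm2 was likewise lower in cycling myeloid cells, at 98.6, 94.8, 69.1 and 108 CPM against 153, 140, 136 and 167 CPM.

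On average over the libraries the other targets shifted less with the tumor cell cycle. Ccng1 was lower in cycling tumor cells of 4 of 4 libraries, at 39.6, 37.9, 33 and 30.8 CPM against 58.8, 49.5, 49.0 and 41.7 CPM, a log2 ratio of -0.48 ± 0.09 (SD, n = 4). Bax was higher in 4 of 4, at 77.9, 74.6, 82.4 and 71.0 CPM against 59.6, 55.6, 68.5 and 57.9 CPM, a log2 ratio of 0.34 ± 0.07. Phlda3 had a mean of 0.38 ± 0.35, with 0.83 (0.55 to 1.10) in BTYNB, 0.45 (0.18 to 0.71) in combination, 0.24 (0.04 to 0.44) in control and -0.01 (-0.20 to 0.18) in anti-PD-1. The 3 genes with a close p53 element in the promoter window did not share a direction. Mdm2 (-0.26 ± 0.13), Sesn2 (-0.24 ± 0.14) and Bbc3 (-0.24 ± 0.13) were lower in 4 of 4 libraries, although single intervals included 0, and Trp53 (0.08 ± 0.08) moved no more than its spread. The median log2 ratio of the 8 tested targets was -0.18, beside -0.11 over all genes tested. The share of all genes lower in 4 of 4 libraries was not counted. Only Cdkn1a passed 1.5-fold in 4 of 4 libraries on the higher side, beside 3.31% of 15665 genes, and 0 of 8 targets passed it on the lower side, beside 2.92%.

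**Figure D4:**
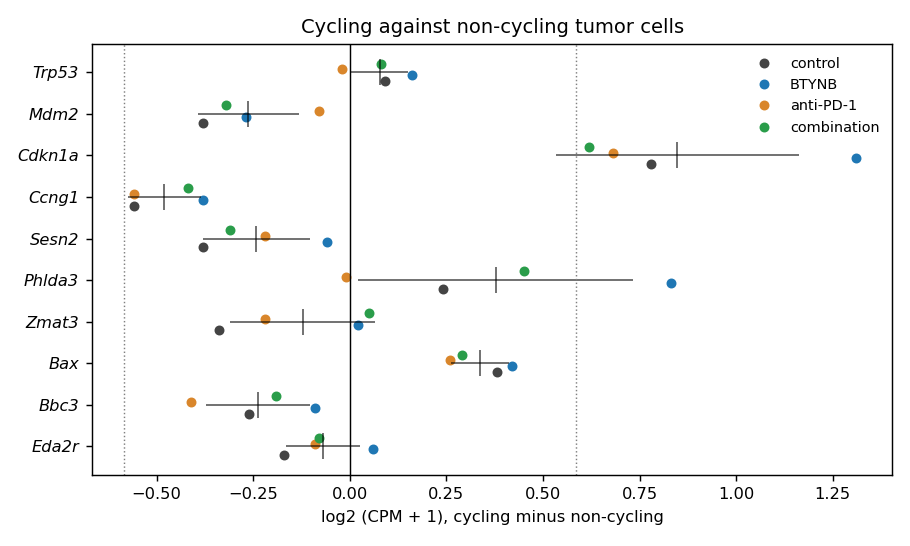
Difference in log2(CPM + 1) between cycling and non-cycling tumor cells of the same library (horizontal axis) for each gene, with 1 colored point per library, the black bar at the mean with its SD over 4 libraries, and dotted lines at 1.5-fold. Cdkn1a lies beyond the higher line in 4 of 4 libraries, Bax lies above 0 and Ccng1, Mdm2, Sesn2 and Bbc3 below 0 in 4 of 4.

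The study follows MDM2 and other transcripts bound by IGF2BP1. In human ovarian cancer cells it found faster MDM2 mRNA decay after IGF2BP1 depletion and less MDM2 mRNA bound to IGF2BP1 under BTYNB. It also reported less MDM2 protein after depletion in several cell lines. A reporter carrying an untranslated region of MDM2 was less active after depletion or under BTYNB, and deleting that region from the gene removed the regulation by IGF2BP1. BTYNB was therefore read in non-cycling tumor cells, without anti-PD-1 (BTYNB against control) and with it (combination against anti-PD-1). These contrasts share no library. Mdm2 was at 32.4 CPM in control and 43.6 CPM in BTYNB, a log2 difference of 0.42 (0.31 to 0.53), and at 35.9 CPM under anti-PD-1 alone against 42.0 CPM in combination, a difference of 0.22 (0.12 to 0.32). Both intervals excluded 0 for counting error, and no replicate bears on either. Mdm2 was thus higher with BTYNB in both contrasts, whereas the study reports MDM2 mRNA as stabilized by IGF2BP1. Transcript levels in ascites and decay in human cell culture are different measures. In cycling tumor cells the differences were 0.53 (0.39 to 0.67) and -0.01 (-0.14 to 0.12), so the contrast with anti-PD-1 was seen in non-cycling cells and not detectable in cycling ones, and the difference between them was not tested. Trp53 was higher with BTYNB in the same contrasts, by 0.37 (0.25 to 0.49) and 0.23 (0.11 to 0.35) in non-cycling and by 0.44 (0.30 to 0.58) and 0.33 (0.19 to 0.47) in cycling tumor cells.

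Cdkn1a and Phlda3 were lower with BTYNB. In non-cycling tumor cells Cdkn1a was at 11.1 CPM in control and 6.21 CPM in BTYNB, a difference of -0.75 (-0.96 to -0.54), and at 33.7 CPM under anti-PD-1 alone against 8.23 CPM in combination, a difference of -1.91 (-2.09 to -1.74). Averaged over cells in place of summed over them, the difference without anti-PD-1 was only -0.26. Phlda3 was at 8.14 against 4.66 CPM and at 9.31 against 5.62 CPM, differences of -0.69 (-0.93 to -0.45) and -0.64 (-0.87 to -0.41). They were the 2 of 8 targets past 1.5-fold the same way in both contrasts, beside 2.32% of 14295 genes past it in either direction. In cycling tumor cells 0 of 8 targets passed it, beside 1.90% of 13508 genes, since there Cdkn1a differed by -0.22 (-0.40 to -0.04) without anti-PD-1 and Phlda3 by -0.11 (-0.35 to 0.13) and -0.19 (-0.43 to 0.05). Ccng1 was lower in both contrasts by -0.24 (-0.33 to -0.15) and -0.23 (-0.33 to -0.13). The median over the 9 targets was -0.12 and -0.23, beside -0.01 and 0.06 over all genes.

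Anti-PD-1 was read in the same 4 libraries, and went with a higher Cdkn1a in non-cycling tumor cells, by more where BTYNB was absent. Non-cycling tumor cells differed by 1.52 (1.38 to 1.66) between anti-PD-1 and control, and by 0.36 (0.12 to 0.59) between combination and BTYNB. Much of the first difference sat in tumor cells with at least 3 UMIs of Cd24a, a surface glycoprotein gene, which were 18.5% of anti-PD-1 tumor cells and 3.40% to 4.17% of those of the other libraries. In anti-PD-1 these 2015 cells held Cdkn1a at 111 CPM (107 to 116), and the remaining 8862 cells at 22.2 CPM (21.0 to 23.4). In control the same split gave 25.7 and 14.5 CPM. Without Cd24a-rich cells, an alternative added after the data were seen, the non-cycling difference was 0.72 in place of 1.52, and that between combination and anti-PD-1 was -1.06 in place of -1.91. The glycolysis and hypoxia-response gene Pgk1 was also high in the Cd24a-rich cells of anti-PD-1, at 1929 against 491 CPM, and its part in the Cdkn1a level was not tested. Mdm2 was at 43.2 against 32.5 CPM across that split. Of the markers of other cells, the 5 dendritic markers summed to 38.6 CPM in non-cycling tumor cells of anti-PD-1 and to 3.67 CPM in those of control, with UMIs of all 5 in both. Nearly all of that sum was Ccr7, a chemokine receptor gene, with 3506 of the 3631 UMIs in anti-PD-1 tumor cells, while Flt3, Xcr1, Clec9a and Cd209a stood at 0.292 to 0.438 CPM each. Ccr7 was at 133 CPM in the Cd24a-rich cells and at 15.4 CPM in the remaining ones, and its part in the Cdkn1a level was not tested.

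Of the other targets some were higher and some lower with anti-PD-1. Mdm2 was higher than in control by 0.15 (0.04 to 0.25) in non-cycling and by 0.44 (0.32 to 0.56) in cycling tumor cells, whereas between combination and BTYNB it differed by -0.05 (-0.16 to 0.05) and -0.10 (-0.24 to 0.04). Ccng1 was lower in both contrasts in non-cycling tumor cells, by -0.26 (-0.34 to -0.17) and -0.24 (-0.35 to -0.14). In the same cells Sesn2 was lower by -0.59 (-0.83 to -0.36) against control but not detectably different between combination and BTYNB (-0.11, -0.40 to 0.18), and Bax was higher by 0.20 (0.12 to 0.27) against control. In non-cycling tumor cells the median over the 9 targets, the sparse Eda2r included, was 0.11 against control, beside -0.06 over all genes. Between combination and BTYNB it was 0.06, beside 0.01. With anti-PD-1, 0 of 8 targets passed 1.5-fold the same way in both contrasts in non-cycling tumor cells, beside 0.287% of 14295 genes, and 0 of 8 in cycling ones, beside 0.407% of 13508 genes.

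**Figure D5:**
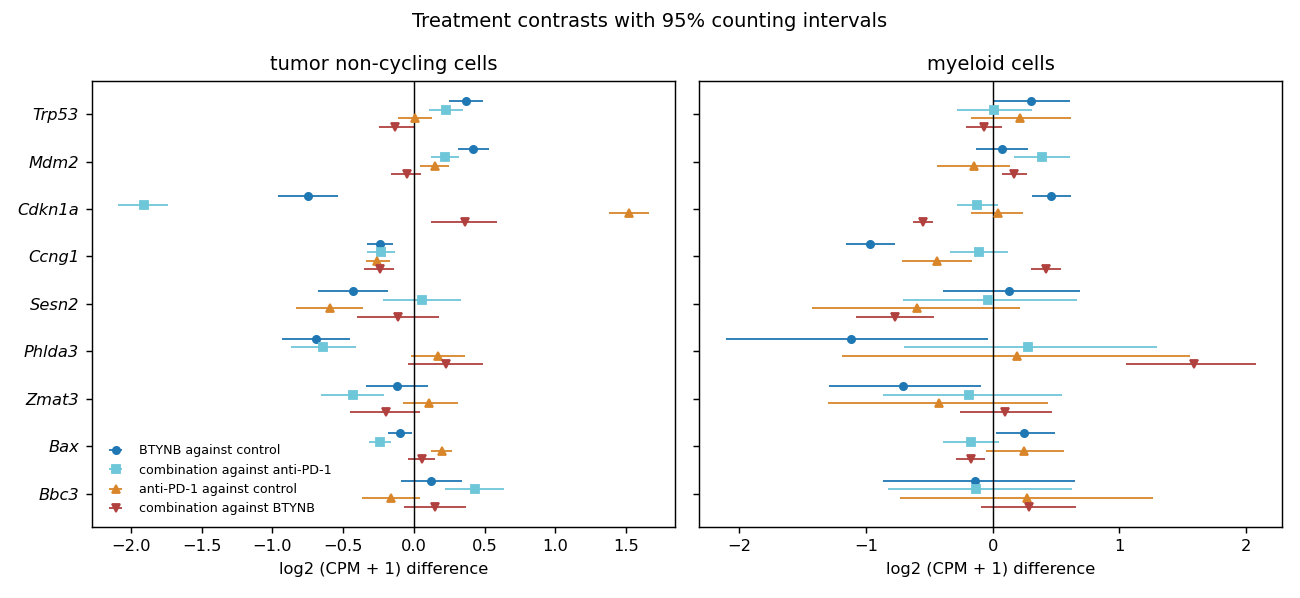
Difference in log2(CPM + 1) for 4 treatment contrasts (marker shapes) in non-cycling tumor cells (left) and myeloid cells (right), with 95% counting intervals, and Eda2r left out as too sparse. In tumor cells Mdm2 and Trp53 lie above 0 and Cdkn1a and Phlda3 below 0 in both BTYNB contrasts, and Cdkn1a between anti-PD-1 and control lies at 1.52.

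Myeloid cells, whose Trp53 is not described as altered, gave other patterns, and their makeup changed between libraries as well. Neutrophil markers in the myeloid gate ranged from 36.9 to 1952 CPM and dendritic markers from 59.4 to 467 CPM, and the part of such shifts in the values that follow was not tested. Ccng1 was at 152 CPM in control and 77.5 CPM in BTYNB (-0.97, -1.16 to -0.77) but stood at 112 CPM under anti-PD-1 alone against 104 CPM in combination (-0.11, -0.34 to 0.12). Cdkn1a was highest in BTYNB, at 310 CPM, with differences of 0.46 (0.31 to 0.62) from control and of -0.55 (-0.63 to -0.47) between combination and BTYNB. Sesn2 was lower with anti-PD-1 in both contrasts, by -0.60 (-1.43 to 0.22, on 19 and 30 UMIs) and by -0.77 (-1.08 to -0.46). It was the 1 of 7 tested targets past 1.5-fold the same way, beside 2.54% of 10496 genes, while 0 of 7 passed with BTYNB, beside 10.7%. Mdm2 was higher in combination than in anti-PD-1 by 0.39 (0.17 to 0.61), with no detectable difference between BTYNB and control (0.07, -0.13 to 0.28). Trp53 differed by at most 0.30 in any myeloid contrast.

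The wider p53 pathway, in 4 lists, did not share the direction of Mdm2 and Cdkn1a. Of 16 regulators and relatives of p53, 14 were tested and 0 passed 2-fold in either direction in 4 of 4 libraries between tumor and myeloid cells, with a median log2 ratio of 0.05. The largest differences there were Trp53bp1 (1.35 ± 0.47), a DNA repair adaptor, Trp63 (1.09 ± 0.27, on 0 to 8 myeloid UMIs a library), a p53 relative, Chek1 (0.98 ± 0.33), the checkpoint kinase, and Hipk2 (-0.85 ± 0.22), a kinase that phosphorylates p53. Of 12 further targets in arrest and repair, 0 passed in either direction, and their median was 0.36, with Fdxr (1.20 ± 0.31), a mitochondrial reductase, and Ddb2 (1.16 ± 0.24), a UV damage sensor, higher in 4 of 4 libraries.

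Apoptosis genes went both ways. Of 10 tested, 3 were at least 2-fold lower in tumor cells, Pmaip1 (-5.73 ± 0.59), Apaf1 (-2.41 ± 0.14) and Fas (-1.88 ± 0.67), and 3 at least 2-fold higher, Perp (3.81 ± 0.34), Tnfrsf10b (1.89 ± 0.21) and Siva1 (1.17 ± 0.06). The myeloid side of Tnfrsf10b rested on 1 to 13 UMIs and that of Perp on 5 to 15, and both genes passed the minimum of 100 UMIs through the tumor cells, so the size of their differences is uncertain. Pmaip1, the gene of the BH3-only protein NOXA, was at 0.496 to 1.67 CPM in tumor cells and at 52.8 to 186 CPM in myeloid cells. Perp, a gene of epithelial desmosomes, was at 31.6 to 63.6 CPM in tumor and 0.979 to 5.38 CPM in myeloid cells. Of 9 metabolic and other targets, Dcxr (-1.77 ± 0.25) was lower and Ak1 (2.44 ± 0.71), Cd82 (2.38 ± 0.46) and Ddit4 (1.93 ± 0.45) were higher, with a median of 1.34. The myeloid side of Ak1 rested on 6 to 35 UMIs a library. Ak1 too passed the minimum through the tumor cells, so the size of its difference is uncertain. All these values are means ± SD over 4 libraries, and the lists read beside the same 10.3% lower and 14.0% higher over all genes.

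Across the 16 combinations of library and class with at least 50 cells, in which cycling and non-cycling tumor cells counted apart, the genes whose log2(CPM + 1) was most like that of Trp53 among 9251 genes were Pik3cd (Pearson r = 0.979), Zfp268 (0.975), Map3k8 (0.975), Dock2 (0.975) and Itga4 (0.974). For Mdm2 they were Zswim6 (0.978), Stat6 (0.973), Ppp1r12c (0.972), Slfn4 (0.970) and Tent5a (0.970). The points share libraries and fall into tumor and host classes, so r mostly measures that split. Pik3cd, a leukocyte PI3-kinase subunit, was at 5.48 to 9.90 CPM in tumor and 122 to 336 CPM in host classes, and Stat6 at 20.9 to 29.8 and 46.1 to 105 CPM.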

How the data were processed

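Cells from the mice of a group were pooled and captured on the BD Rhapsody HT system. Per the study's methods, the authors processed the reads with the BD Rhapsody Sequence Analysis Pipeline, and the submitters' processing notes name GRCm39. The deposited values are raw UMI counts per gene and cell, not normalized. Cells with under 200 genes or over 33% mitochondrial UMIs were left out, which kept 7834, 18283, 12019 and 7042 cells of control, BTYNB, anti-PD-1 and combination. The class gates are those given with the results, and cells passing more than 1 gate (39, 439, 54 and 219) were left out in place of a doublet caller.

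UMIs were summed per class and library and divided by the class total to give CPM. Differences are on the log2(CPM + 1) scale, which understates changes of low genes. Genes needed 100 UMIs over the groups compared, and classes 50 cells. Level intervals are exact Poisson, share intervals exact Clopper-Pearson. The interval of a log2 difference comes from the exact binomial interval of the shared UMIs. With 1 library per group no test between treatments was run, and n over libraries describes spread only. The calls and intervals were tested on simulated Poisson counts, which hold no variation between cells, mice or libraries beyond counting error. Python 3.11.15, numpy 2.4.6, scipy 1.17.1 and pandas 2.3.3 were used.

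Genes, gates and pathway lists were chosen with earlier results of these data known. All 10 genes are named. Of each pathway list up to 4 genes with the largest mean difference between tumor and myeloid cells were to be named, and Fas and Siva1 were added after their values were seen, as members of a count. For Trp53 and Mdm2 the 5 genes of highest Pearson r among those of at least 10 CPM on average are given. Promoter sequences are RefSeq's, on GRCm38.p6, and no coordinate of the count files was used. The Zmat3 promoter was not in that table.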

Additional observations from a re-analysis of the deposited data

Results flagged for a closer look

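For Cdkn1a and Ccng1 the 2 contrasts of anti-PD-1, without and with BTYNB, lay on opposite sides of 0 with counting intervals that excluded it. In cycling tumor cells Cdkn1a differed by 1.42 (1.30 to 1.55) between anti-PD-1 and control and by -0.34 (-0.55 to -0.13) between combination and BTYNB. In myeloid cells Ccng1 differed by -0.44 (-0.72 to -0.16) between anti-PD-1 and control and by 0.42 (0.30 to 0.54) between combination and BTYNB. With 1 library in each group the difference between the contrasts was not tested, and these intervals cover counting error only.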

How the results depend on the processing

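Of 323 values under 19 alternative settings for 25 results, 284 stayed within the spread of the main value, 35 moved further and 4 reversed. That spread was the SD over libraries, the counting interval of a treatment contrast, or 1.5-fold for a count of targets. A reversal was counted only where the main value exceeded its SD or its interval excluded 0. Bbc3 against myeloid cells was thus not counted, although in UMIs per cell it differed by 0.58, 1.71, -0.05 and 0.67 in control, BTYNB, anti-PD-1 and combination. Scaling by median of ratios moved the median over all genes between tumor and myeloid cells from 0.31 to 0.11, the Trp53 difference from -1.19 to -1.47 (-1.50 and -1.58 relative to that median), and the number of genes called lower from 1679 to 2007. In UMIs per cell, added after the data were seen, Trp53 differed by -0.24 against myeloid cells and reversed against T cells (0.43) and B cells (0.57), as did Zmat3 (0.37) and Bax (0.24) against myeloid cells. That scale divides by cells in place of UMIs, and tumor cells held more UMIs. With free RNA subtracted, Trp53 differed by -1.51 from T and -1.44 from B cells, and with at most 2 keratin UMIs by -1.51 from B cells. The 1 target lower than in T cells became 0 with a mean over cells or a pseudocount of 5 CPM. The 0 targets lower than in B cells became 1 with the keratin limit, with cells of at least 5115 UMIs or with a mean over cells, and 2 with free RNA subtracted. Leaving out a library gave 3 targets in either case against T cells, and 1 to 2 against B cells (1 without BTYNB, 2 without combination), each resting on the remaining library. The 3 targets lower than in myeloid cells ranged from 2 to 4 over all alternatives. Mdm2 between BTYNB and control differed by 0.60 as a mean over cells. The causes of these shifts were not tested. At thinning to 2000 in place of 1000 UMIs, 35 of 40 pairs of gene and library kept the order of tumor and myeloid shares. No paired analysis was possible because the labels number no replicates and no value comes from a test, although class differences were taken within each library. Depth limits Eda2r everywhere, and Phlda3, Sesn2, Zmat3 and Bbc3 in myeloid cells of control and anti-PD-1.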
